A study of Homo sapiens with 6 samples.

Results

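Zinc finger genes that carry a ZNF number and lie outside chromosome 19 were followed from nascent transcription to steady-state RNA in K562 cells. Members were the protein-coding genes on autosomes other than chromosome 19 whose symbol is ZNF, digits and at most 1 letter, found by joining the transcript identifiers of the count tables to GENCODE genes. The rule used no measured value and gave 246 genes of the 18937 protein-coding genes matched, on 19 chromosomes, with 35 on chromosome 7, 29 on chromosome 16 and 3 on chromosome 14. Another 243 genes with such symbols lie on chromosome 19 and are used only for comparison. K562 is an established human line from chronic myelogenous leukemia with erythroid features. Untreated K562 cells, grown in one flask in RPMI-1640 with serum, gave 4 RNA-seq libraries (total RNA depleted of ribosomal RNA) and 2 PRO-seq libraries, which map RNA polymerases engaged in transcription. No group differs in genotype, treatment or time, so the comparison is between both assays of the same cells.

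C2H2 zinc fingers are short protein modules that fold around a zinc ion, and arrays of them read specific DNA sequences. In many of these proteins an N-terminal KRAB domain recruits the co-repressor TRIM28, which brings the histone methyltransferase SETDB1 and HP1 proteins to silence chromatin, often at transposable elements. Some carry a SCAN domain, which pairs zinc finger proteins with each other. Others carry neither domain, and a few bind RNA, ribosomes, microtubules or SUMO. Their genes multiplied by tandem duplication, so that many lie side by side and share stretches of coding sequence. The stretch of 18 bases shared by the most members codes for the linker that joins adjacent fingers, though most members lack this exact stretch. It is shown here in the coding direction, with the part that codes for the linker in capitals.

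Finger linker: tcatACTGGAGAGAAACC

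It was read from the canonical coding sequences of the GENCODE transcripts on GRCh37 and was held by 40 of the 241 members with such a sequence (16.6%). On chromosome 19 it was held by 96 of 240 genes, and among other mRNAs by 11 of 17606 counted transcripts. ZNF721 on chromosome 4 held it most often, with 12 copies.

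Reads per transcription unit (TU, one counted transcript) were turned into TPM, a level scaled to library depth and TU length so that every library has the same total. RNA-seq TPM used the exonic length, and PRO-seq TPM the transcript without 500 bp at either end (its PRO-seq body). Relative half-life is the ratio of RNA-seq TPM to PRO-seq TPM at steady state. It has no time unit and is given as log2, minus the value of the median mRNA, so that 0 is the median mRNA and negative values lie below it. TPM of both assays are on separate scales, so a gene can lie above the median mRNA with less RNA-seq than PRO-seq TPM. The authors state that PRO-seq levels depend on elongation rate as well as on transcription rate. Elongation rate was not corrected for here. The ± beside a log2 relative half-life is the replicate SD (n = 4 and 2), the root of the summed variances of log2 TPM within each assay. A TU was tested where its PRO-seq level was over 10 TPM and its RNA-seq level over 1 TPM, with edgeR's quasi-likelihood test of RNA-seq against PRO-seq and Benjamini-Hochberg adjustment over all 10053 TUs that passed. Adjusted p-values below 0.05 were called. All libraries came from the same flask, so these p-values measure the spread between libraries and not between cultures.

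Counts on TUs ranged from 5732780 to 9002746 in RNA-seq, and were 6993816 and 7245632 in PRO-seq. Members took 0.604% to 0.632% of the RNA-seq counts and 1.07% to 1.09% of the PRO-seq counts, so every PRO-seq library gave members a larger share than every RNA-seq library. The RNA-seq libraries fell into close pairs. Over members with at least 20 counts in a pair, the chi-square per TU was 1.07 between replicates 1 and 3 (p = 0.257, chi-square test, 184 members) and 1.09 between replicates 2 and 4 (p = 0.188, 188 members), where sampling alone gives 1. It was 1.62 to 1.85 between the other RNA-seq pairs. Over all TUs the close pairs had 1.12 and 1.12, above sampling noise. No label says whether a close pair is 2 libraries of the same RNA, and these values do not settle it, so the 4 RNA-seq libraries may stand for only 2 RNA samples and the SD beside each value may be too small. Libraries were used as labelled, and main counts are also given with each close pair summed. Among markers of this cell line, RNA-seq TPM was 155 for GATA1 and 632 for TFRC, and 6287 for the fetal globin gene HBG2. Each of the 6 markers of other cells that were matched, HBB and ALB among them, lay at 0.483 TPM or less.

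Members past the thresholds had a median PRO-seq level close to that of other mRNAs and less steady-state RNA. Of the 246 members, 236 had RNA-seq counts, 226 had PRO-seq counts and 165 passed both thresholds. Among those tested, median PRO-seq TPM was 51.3 against 47.5 over the 8733 mRNAs tested, and 86 of 165 lay above that median. Median RNA-seq TPM was 12.6 against 31.2, and 132 of 165 lay below it. The relative half-life was called below the median mRNA for 143 members (86.7%) and above it for 17 (10.3%). Over all TUs tested, 50.4% were called below and 40% above, and over mRNAs 44.9% and 45.4%. The median over members was -1.37 on the log2 scale, a ratio 2.59 times lower than that of the median mRNA, with quartiles of -2.08 and -0.66. In each of the 8 combinations of 1 RNA-seq with 1 PRO-seq library it lay between -1.48 and -1.30, and 143 members were below the median mRNA in all 8. Summing the close RNA-seq pairs left 143 members called below and 16 above. With a minimum of 10 summed counts in place of the TPM thresholds, 142 of 224 members tested were below (63.4%) and 46 above (20.5%), where all TUs had 43.8% and 33.2%. Values differed between members with an SD across genes of 1.23 on the log2 scale, and the median replicate SD of a single member was 0.158.

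**Figure D1:**
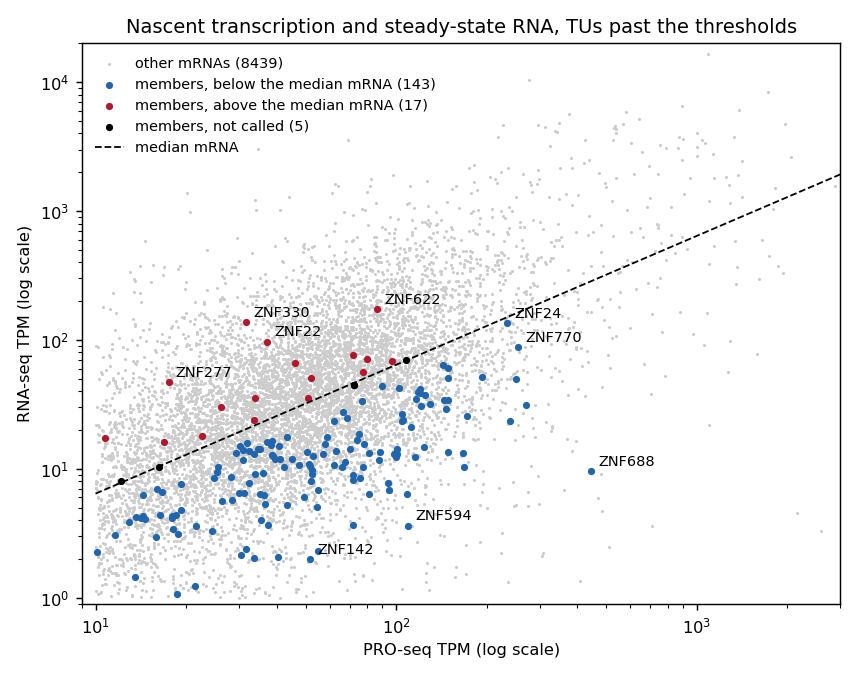
RNA-seq TPM against PRO-seq TPM, both on log axes, for TUs past the thresholds. Grey points are the 8439 other mRNAs, blue points the 143 members called below the median mRNA (dashed line), red points the 17 called above and black points the 5 not called. Most members sit under the dashed line at PRO-seq levels like those of other mRNAs.

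Zinc finger genes on chromosome 19 had a similar median, -1.50 over the 127 of 243 that passed the thresholds, with 114 called below the median mRNA (89.8%) and 6 above (4.72%). The difference between both medians, members minus chromosome 19, was 0.13, and it ranged from 0.027 to 0.16 over the 8 library combinations. It turned negative under 3 other settings, so its direction depended on the setting. It was -0.037 with a minimum of 10 summed counts in place of the thresholds and 0.5 TPM added to each level. It was -0.016 at 20 and 2 TPM and -0.23 without length scaling. Members passed the thresholds more often, 67.1% against 52.3%. Their tested median PRO-seq TPM was 51.3 against 38.5.

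**Figure D2:**
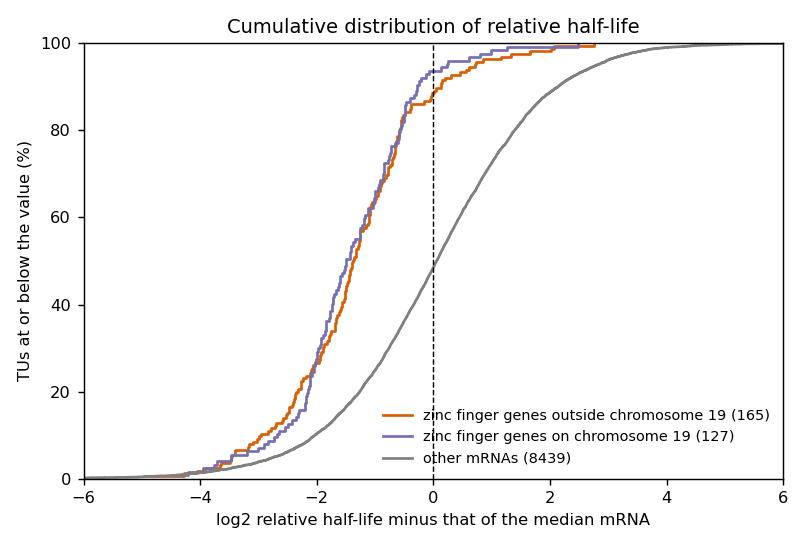
Cumulative share of TUs by log2 relative half-life minus that of the median mRNA (dashed line), for the 165 members, the 127 zinc finger genes on chromosome 19 and the 8439 other mRNAs past the thresholds. Both zinc finger curves lie to the left of that of other mRNAs and cross each other.

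The 10 members with the lowest relative half-lives each had an RNA-seq level below the median of tested members, over a wide range of PRO-seq levels. ZNF688 (chr16:30569726-30579951, GRCh38) lies in a cluster on chromosome 16 and had the lowest value of all members and the highest PRO-seq level. Its RNA-seq level was 11.4, 8.15, 10.04 and 8.75 TPM in the 4 libraries, and its PRO-seq level 489 and 403 TPM in both. Its log2 relative half-life was -4.90 ± 0.29 (adjusted p = 1.67e-21, edgeR). The counted ZNF688 transcript spans 1989 bp, so its PRO-seq body is short and rests on 230 summed counts. ZNF594 on chromosome 17, with 21 fingers counted in its translated coding sequence, had 2.91, 4.76, 3.23 and 3.36 TPM in RNA-seq and 110.2 and 109.5 TPM in PRO-seq. Its value was -4.28 ± 0.31. ZNF142 on chromosome 2 holds 36 fingers. It had 2.07, 2.03, 1.83 and 2.01 TPM in RNA-seq against 48.6 and 54.6 TPM in PRO-seq, a value of -4.05 ± 0.14. The levels of its 4 RNA-seq libraries lay closer together than those of the other members named here as lowest.

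ZNF425, a KRAB gene, and ZNF467, which acts in the choice between fat and bone cell fates, lie in the same run of genes on chromosome 7. ZNF425 had 2.81, 2.44, 1.92 and 1.88 TPM in RNA-seq and 56.96 and 52.9 TPM in PRO-seq. ZNF467 had 4.70, 3.34, 3.77 and 2.58 TPM in RNA-seq and 69.0 and 74.9 TPM in PRO-seq. Their values were -3.93 ± 0.29 and -3.67 ± 0.37. ZNF862, of the same run, had an RNA-seq level of 0.926, 1.33, 1.49 and 1.25 TPM and 23.1 and 19.8 TPM in PRO-seq, which gave -3.49 ± 0.33. ZNF862 passed the RNA-seq threshold by little, and its first library lay under 1 TPM. ZNF771 on chromosome 16 had -3.65 ± 0.29, ZNF385A -3.45 ± 0.36 and ZNF319 -3.40 ± 0.50. ZNF596 on chromosome 8 had 1.99, 0.628, 0.988 and 0.574 TPM in RNA-seq and 19.04 and 18.2 TPM in PRO-seq. Its value of -3.48 ± 0.82 rests on 17 RNA-seq counts in all and has the widest spread of these 10 members. All 10 were called below the median mRNA in every alternative that tested them. ZNF142, ZNF862 and ZNF596 were not tested at thresholds of 20 and 2 TPM, and ZNF596 fell short of 1 TPM without RNA-seq replicate 1.

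A smaller group of members had more RNA than their PRO-seq level gives at the median mRNA. ZNF330 (chr4:141220535-141234697, GRCh38), a cysteine-rich nucleolar protein in whose sequence the pattern for C2H2 fingers was found 0 times, was the highest. Its RNA-seq level was 137, 138, 144 and 131 TPM and its PRO-seq level 35.95 and 27.6 TPM. Its value was 2.75 ± 0.28 (adjusted p = 3.62e-22, edgeR). ZNF277, a partner of the ribosomal protein uS5, had 43.2, 48.5, 52.8 and 45.8 TPM in RNA-seq and 18.9 and 16.1 TPM in PRO-seq, a value of 2.07 ± 0.20. ZNF22, a small gene of 2 exons on chromosome 10, had 97.1, 96.5, 102 and 92.7 TPM in RNA-seq and 35.2 and 39.01 TPM in PRO-seq. Its value was 2.02 ± 0.12, from 66 PRO-seq counts. ZNF622, needed for maturation of the large ribosomal subunit, had 175, 176, 172 and 171 TPM in RNA-seq, the highest RNA-seq level of all members. With 82.1 and 89.97 TPM in PRO-seq its value was 1.65 ± 0.10.

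ZNF638, an RNA-binding nuclear protein, followed with 66.3, 67.04, 64.4 and 68.5 TPM in RNA-seq and 48.2 and 44.2 TPM in PRO-seq, a value of 1.17 ± 0.10. ZNF143, an activator of small nuclear RNA and mRNA promoters, had 27.8, 33.4, 29.5 and 29.6 TPM in RNA-seq and 28.02 and 24.4 TPM in PRO-seq. Its lowest RNA-seq library lay below its higher PRO-seq library in TPM, and its value was 0.84 ± 0.18. ZNF131, which carries a BTB domain, had 0.73 ± 0.10, and ZNF672 0.61 ± 0.083. The counted ZNF131 transcript is annotated for nonsense-mediated decay and has 956 exonic bases against 3286 in the canonical one. ZNF205 had 1.33 ± 0.36 from 39 PRO-seq counts and lay just past the PRO-seq threshold at 10.7 TPM. ZNF800 had 0.71 ± 0.23, with 410 exonic bases in its counted transcript against 4473 in the canonical one. All 10 kept their call without any 1 library, except that ZNF205 fell short of the PRO-seq threshold without replicate 2. When only differences of over 2-fold from the median mRNA were tested, ZNF143, ZNF131, ZNF800 and ZNF672 were not called.

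**Figure D3:**
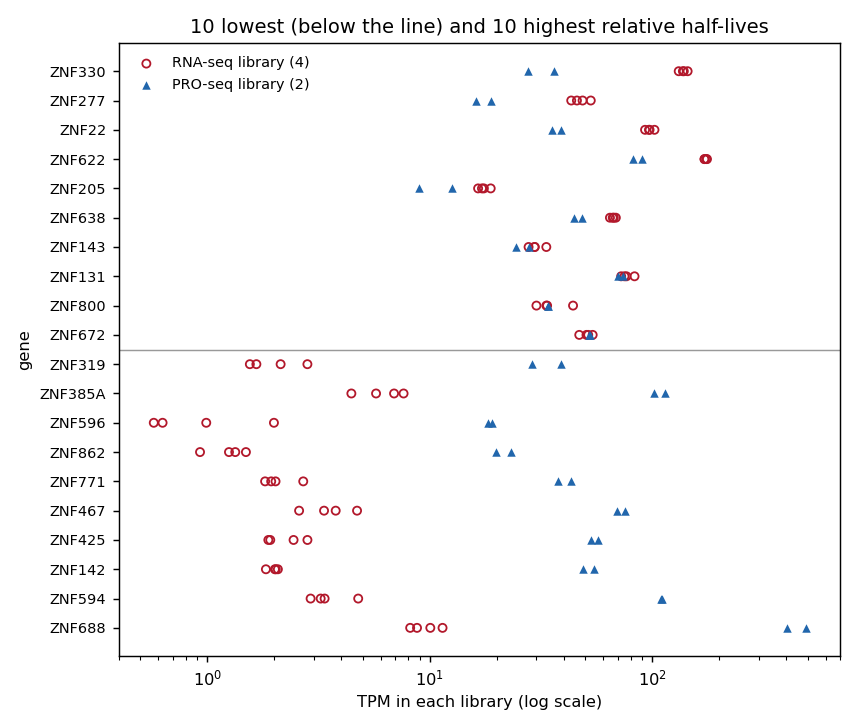
TPM in each library on a log axis for the 10 members with the lowest (below the line) and the 10 with the highest relative half-life among those called. Open circles are the 4 RNA-seq libraries and triangles the 2 PRO-seq libraries. Circles lie far to the left of triangles for the lowest 10, and to the right of them or close to them for the highest 10. The TPM scales of the assays are separate, so this order is not the side of the median mRNA.

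The promoters of these extremes are shown because members differed in PRO-seq level by a wide margin. Each line gives the 250 bases before the start site in the RefSeq window on GRCh38.p14, with CpG dinucleotides in capitals. The windows are those of ZNF688 (highest PRO-seq level, chr16:30571715-30571964, minus strand), ZNF330 (highest relative half-life, chr4:141220645-141220894, plus strand) and ZNF679 (no count in any library, chr7:64228224-64228473, plus strand).

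ZNF688: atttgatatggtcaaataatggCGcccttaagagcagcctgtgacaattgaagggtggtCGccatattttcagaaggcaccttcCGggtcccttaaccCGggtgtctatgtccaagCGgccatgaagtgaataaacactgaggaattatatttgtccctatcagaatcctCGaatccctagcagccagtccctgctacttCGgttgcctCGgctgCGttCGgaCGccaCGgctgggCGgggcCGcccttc
ZNF330: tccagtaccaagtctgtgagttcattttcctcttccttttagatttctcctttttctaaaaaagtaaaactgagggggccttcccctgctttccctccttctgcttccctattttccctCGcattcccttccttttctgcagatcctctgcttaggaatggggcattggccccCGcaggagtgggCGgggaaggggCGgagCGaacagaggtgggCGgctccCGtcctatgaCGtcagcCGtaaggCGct
ZNF679: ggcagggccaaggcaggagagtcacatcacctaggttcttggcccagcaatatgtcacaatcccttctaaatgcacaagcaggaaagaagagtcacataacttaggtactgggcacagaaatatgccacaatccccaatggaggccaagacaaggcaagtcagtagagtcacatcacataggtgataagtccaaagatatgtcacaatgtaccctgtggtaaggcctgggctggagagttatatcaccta

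These stretches hold 14, 10 and 0 CpG dinucleotides. A window of 300 bases (250 before and 50 after the start) was matched for 200 of the 246 members, and for none on chromosome 8. 15 or more CpG dinucleotides (both strands read the same) were found in 165 of these windows (82.5%). The share was 67.9% over 14645 windows of mRNAs and 74.2% over those of chromosome 19. The median was 24 over all member windows, 23 over mRNAs and 20 on chromosome 19. It was also 24 in members past the thresholds (137 windows). It was 16 in the members under 1 PRO-seq TPM whose body is mostly free of other TUs (16 windows, 0 to 53). The counted transcript of a gene need not start at this window.

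PRO-seq and RNA-seq levels did not rank members alike. The highest PRO-seq levels after ZNF688 were those of ZNF3 (273 and 268 TPM), ZNF770 (265 and 243 TPM), ZNF518B (246 and 252 TPM) and ZNF280B (234 and 243 TPM). ZNF3 had 24.8, 34.3, 31.1 and 34.7 TPM in RNA-seq and a value of -2.48 ± 0.23. ZNF280B had 23.6, 22.4, 24.8 and 23.9 TPM and a value of -2.70 ± 0.07, and ZNF518B 50.6, 49.8, 47.8 and 51.7 TPM and a value of -1.68 ± 0.054. Only ZNF770 stood among the 5 highest in both assays, with 81.4, 93.4, 84.6 and 93.8 TPM in RNA-seq and a value of -0.89 ± 0.14. The highest RNA-seq levels were those of ZNF622, ZNF330, ZNF24, ZNF22 and ZNF770. ZNF24, a SCAN domain repressor, had 131, 135, 131 and 142 TPM in RNA-seq and 243 and 225 TPM in PRO-seq. Its RNA-seq level thus came with a high PRO-seq level and a value of -0.16 ± 0.10. That call was lost without PRO-seq replicate 1, and its sign turned when the TPM thresholds were replaced by minimums on counts. Across the 165 members tested, RNA-seq and PRO-seq TPM had a Spearman rho of 0.57, against 0.55 over mRNAs (across genes of the same pooled libraries, which are not replicates). Over genes with counts in both assays, whether or not past the thresholds, rho was 0.75 for 221 members and 0.83 for 14965 mRNAs, so the order of both values turned with the thresholds.

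Members whose products are known for roles outside DNA binding had the widest spread of the 4 lists, with an SD across genes of 1.65 on the log2 scale against 0.975 to 1.09 in the others. Over all mRNAs tested the SD was 1.68, so the spread of this list was close to that of mRNAs at large. Of 12 such names listed, 11 were matched, and all 11 passed the thresholds. 6 were called below the median mRNA and 5 above, with a median of -0.92. Those above were ZNF277, ZNF622 and ZNF638, ZNF451 and ZNF106. ZNF451, a SUMO ligase, had 70.7, 66.7, 71.9 and 74.8 TPM in RNA-seq and 81.97 and 77.4 TPM in PRO-seq, a value of 0.46 ± 0.09. ZNF106, an RNA-binding protein of muscle and neurons, had 36.4, 36.2, 33.5 and 36.4 TPM in RNA-seq and 47.8 and 54.1 TPM in PRO-seq. Its value of 0.13 ± 0.14 did not exceed its replicate SD, and its call (adjusted p = 0.0399, edgeR) was lost under other settings, DESeq2, the close pairs summed and the loss of RNA-seq replicate 1, 2 or 4 or of PRO-seq replicate 1 among them.

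Those below were led by ZNF385A, which binds RNA and p53, at -3.45 ± 0.36, with 7.61, 6.90, 4.43 and 5.73 TPM in RNA-seq and 102 and 114 TPM in PRO-seq. ZNF346, which binds double-stranded RNA, had -1.78 ± 0.14, and ZNF326, part of a complex that links transcript elongation with splicing, had -1.37 ± 0.16. ZNF706, a small protein encoded on chromosome 8, had -1.26 ± 0.11. ZNF598, the ubiquitin ligase that marks collided ribosomes, had 37.6, 37.6, 41.1 and 42.2 TPM in RNA-seq and 111 and 125 TPM in PRO-seq, a value of -0.95 ± 0.15. ZNF207, which loads the checkpoint protein BUB3 on kinetochores, had 48.5, 51.3, 49.6 and 53.5 TPM and 153 and 145 TPM, a value of -0.92 ± 0.083, and 31.1% of its PRO-seq body is covered by another counted TU on the same strand. ZNF598 and ZNF207 had RNA-seq levels above the median mRNA although both were called below it in relative half-life.

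Listed DNA-binding and chromatin factors without a KRAB or SCAN domain had 15 of 24 members past the thresholds, 12 below the median mRNA and 3 above, with a median of -1.44. ZNF143 was the highest of them. The lowest was ZNF217, an oncogene amplified in breast cancer, with 13.1, 12.01, 10.8 and 12.9 TPM in RNA-seq, 114 and 116 TPM in PRO-seq and a value of -2.59 ± 0.13. The counted ZNF217 transcript has 568 exonic bases against 5790 in the canonical one. ZNF592 and ZNF687, which work in one complex with ZMYND8, had -2.38 ± 0.083 and -1.89 ± 0.21. Of 17 matched SCAN members, 13 were tested, 12 below and 1 above, with a median of -1.42. ZNF394 was the lowest at -3.16 ± 0.17, and ZNF215, an imprinted gene of chromosome 11, was the highest at 0.31 ± 0.073. The counted ZNF394 transcript has no defined coding region and 5731 exonic bases against 2163 in the canonical one. That of ZNF215 is annotated for nonsense-mediated decay. ZNF202, a SCAN protein that represses lipid metabolism genes, had -2.32 ± 0.14.

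Of the listed KRAB members 34 of 40 passed the thresholds. 29 of them were below the median mRNA (85.3%) and 3 above, with a median of -1.09, from ZNF425 at -3.93 to ZNF205 at 1.33. Members on none of the lists counted 85 of 93 below and a median of -1.52. The lists were written by hand and not from a search of protein sequences, so members on no list may also carry a KRAB or SCAN domain. These medians thus do not compare members with and without KRAB. The share below was 80.0% in the list without KRAB or SCAN and 92.3% in the SCAN list, and in the list of RNA, ribosome, spindle and SUMO roles it was 54.5%, near the 50.4% over all TUs tested. ZNF445 is on both the SCAN and the KRAB list and counts in each. Differences between these lists were not tested.

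Genes of the co-repressor machinery that KRAB proteins recruit lay mostly on the other side of the median mRNA. Of 17 matched genes 16 were tested, 11 above (68.8%) and 4 below (25%), with a median of 0.78. Over all TUs tested the shares above and below were 40% and 50.4%, and over mRNAs 45.4% and 44.9%. The difference from these shares was not tested on this short list. TRIM28, the scaffold bound by KRAB domains, had 412, 371, 411 and 381 TPM in RNA-seq and 162 and 208 TPM in PRO-seq, a value of 1.72 ± 0.27. SETDB1 had 0.22 ± 0.06. Of the HP1 genes, CBX3 and CBX1 had 2.01 and 2.32, while CBX5 had -1.28. MORC2, an ATPase of the HUSH silencing pathway, was the lowest at -1.80.

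**Figure D4:**
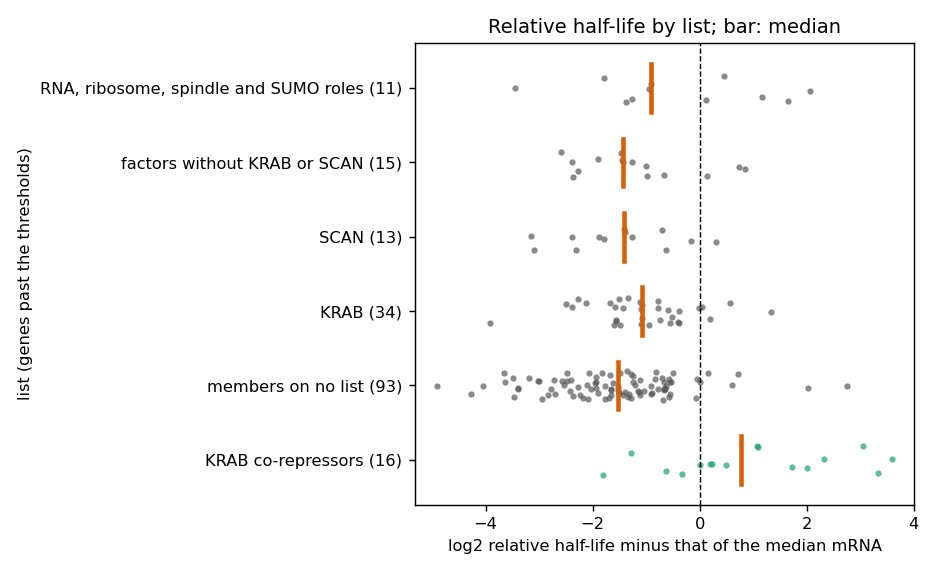
Log2 relative half-life minus that of the median mRNA (dashed line) for each gene past the thresholds, by list, with the number of genes in brackets. Orange bars are medians and points are spread vertically only to be seen. The 4 lists of members and the members on no list have medians below 0, the first list is the widest, and the KRAB co-repressors (green) have a median above 0.

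Members were built of repeated fingers in few exons. They had a median of 9 fingers, against 12 on chromosome 19. Their counted transcripts had a median of 5 exons against 8 over mRNAs. Members with 3 fingers or fewer counted 17 of 23 below the median mRNA and 6 above, with a median of -1.26. Those with 13 or more counted 36 of 39 below and 2 above, with a median of -1.56. ZNF672 was the highest of the latter. Between these classes the medians were -1.39 for 4 to 6, -1.33 for 7 to 9 and -1.11 for 10 to 12 fingers. From the fewest to the most fingers the share called below was 73.9%, 79.3%, 90.2%, 89.7% and 92.3%, and the share above was 26.1%, 13.8%, 9.76%, 3.45% and 5.13%. The medians thus followed no order, while the share below was lower in both classes with 6 fingers or fewer than in the other 3. These differences were not tested. Across members, Spearman's rho with relative half-life was -0.17 for the number of fingers (161 members), -0.26 for the length after the coding region (150) and -0.20 for exonic length (165). Over mRNAs the latter pair of values was -0.29 and -0.33. For the number of fingers, rho was 0.046 over 124 zinc finger genes on chromosome 19. Exonic length also enters each RNA-seq TPM, so these are descriptions across genes of the same libraries.

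Members that hold the shared linker word were 22 of those tested. 21 of them were called below the median mRNA and 1 above, with a median of -1.09, against 118 below and 16 above of 139 without it and a median of -1.42. The exception was ZNF267 on chromosome 16, at 0.19 ± 0.092, a call that was lost with the replicate number as a block and without PRO-seq replicate 2. ZNF721, with the most copies, had -0.49 ± 0.18. Another counted TU on the same strand covers 56.98% of its PRO-seq body.

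Low relative half-life was spread over the genome. Medians were below 0 on each of the 19 chromosomes, from -2.24 on chromosome 12 to -0.52 on chromosome 5. Every tested member was called below the median mRNA on chromosomes 3 (11 members), 8 (12), 9 (8), 12 (9), 14 (2), 17 (7) and 18 (6). 83 members lie in 12 runs of 4 or more genes whose starts follow each other within 500 kb. The largest run (chr16:30378312-31917357, GRCh38) holds 13 genes, of which 10 were tested, 8 below and 1 above. Its values span from ZNF688 at -4.90 to ZNF267 at 0.19. The run on chr7:149069641-149867479 had all 10 genes tested and all below, from ZNF425 at -3.93 to ZNF282, first found as a binder of a leukemia virus promoter element, at -0.40. ZNF282 had 43.3, 43.4, 43.4 and 45.1 TPM in RNA-seq and 92.2 and 87.3 TPM in PRO-seq, and its sign turned with minimums on counts. The run on chr7:63998849-65401136 had 7 of 11 tested and all below, with a median of -0.77, from ZNF92 at -1.44 to ZNF117 at -0.55. The call of ZNF117 (adjusted p = 0.00658, edgeR) was lost with the replicate block (adjusted p = 0.128, edgeR) and without PRO-seq replicate 1 (0.0505), its sign turned with minimums on counts, and another counted TU covers 59.5% of its PRO-seq body on the same strand. The run near the end of chromosome 8 had the lowest median of the runs, -2.87 over 6 genes. Its values went from ZNF517 at -3.19 ± 0.89 to ZNF16 at -2.07 ± 0.14. Only 2 of these 6 genes were counted over the canonical transcript. The counted ZNF517 transcript has no defined coding region, 720 exonic bases against 3238 in the canonical one, and 21 RNA-seq counts. Neighbours could thus share a side of the median mRNA and still differ by several log2 units.

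Members that did not pass the thresholds numbered 81. 57 fell short in both assays, 23 in PRO-seq alone and 1, ZNF334, in RNA-seq alone. 5 had no count in any library, which allows up to 3 summed counts in each assay. Several members short in PRO-seq had abundant RNA. ZNF664 had 2996 RNA-seq counts (43.1 TPM) and ZNF655 had 2977 (48.4 TPM), both without a PRO-seq count. ZNF512 had 976 RNA-seq counts and 3 PRO-seq counts, and ZNF619 638 and 0. These 4 genes were chosen after their values were seen. In each, another counted TU on the same strand covers more than 99% of the PRO-seq body, for ZNF619 that of its neighbour ZNF620. Of the 19 members covered to this extent, 15 had no PRO-seq count and the highest had 8. Of the 202 members covered by under 1%, 3 had none and the median was 474. Over mRNAs the shares without a PRO-seq count were 83.7% of 946 and 8.36% of 15921. Cover on the opposite strand alone (over 99%) went with 0 of 14 members without a PRO-seq count. Over mRNAs, however, 21.9% of 837 with such cover had none, against 9.18% of 11670 covered by under 1% on each strand. Among members, ZNF764 on chromosome 16 is an exception with 185 RNA-seq and 4 PRO-seq counts and no cover on either strand. No relative half-life is given for these members, and the part of the overlap in their counts was not tested.

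Which transcript was counted, and what else it resembles, bears on these levels. The counted transcript was the canonical one of its gene for 127 of 246 members (51.6%, against 60.7% of mRNAs), and 16 members were counted over a transcript annotated for nonsense-mediated decay. 22 were counted over fewer than 1000 exonic bases. Tested members with a canonical counted transcript counted 73 of 82 below the median mRNA and a median of -1.50, and the others 70 of 83 and -1.27. Over 10% of the exonic 75-base windows occurred elsewhere in the genome in 11 members, of which ZNF322 (80.9%), ZNF397 (15.4%) and ZNF124 (13.01%) were tested. ZNF322 had -2.37 ± 0.15, and its values are uncertain because reads could be split between copies. Limited to canonical transcripts with under 10% of the body covered on the same strand and under 10% of repeated windows, 76 members were tested. 67 were below (88.2%) and 8 above (10.5%), where mRNAs under the same limits had 46.6% and 43.3%. The median of these members was -1.49. The part of transcript choice in single values such as those of ZNF800 and ZNF217 was not tested.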

How the data were processed

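RNA-seq (4 libraries, single-end reads of rRNA-depleted total RNA) and PRO-seq (2 libraries) of K562 cells were used. The authors deposited raw HTSeq counts per transcript for each library, without normalization. Their methods name cutadapt for trimming, HISAT2 for alignment to GRCh38 and HTSeq for counting on GENCODE transcripts, where PRO-seq counts leave out 500 bp at both transcript ends. Tool versions and strand handling are not stated in the sources used here. The labels name 500 bp without saying whether at each end.

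Transcript identifiers were joined to GENCODE version 44 lifted to GRCh37, which differs from the build of the authors. Of 42371 transcripts 37339 (88.1%) were found, and lengths, exons and overlaps come from this annotation. Gene positions and promoter windows are RefSeq's on GRCh38.p14. Records that name no TU (66.5% to 68.6% in RNA-seq, 86.5% and 88.6% in PRO-seq) were left out of totals and tests. Reported TPM per assay came from summed counts. No pseudocount was added in the main values. Medians at a minimum of 10 summed counts had 0.5 TPM added to each level. Counts were tested in edgeR 4.0.16 (R 4.3.3) with TMM factors and log length as offsets, centred on the median mRNA. Figures and summaries used Python 3.11.15. On data simulated for this comparison (10053 TUs) the fit called 50 of 50 TUs raised 2-fold, 43 of 50 lowered 2-fold and 10 of 9853 unchanged TUs. It called 50 of 50 raised 4-fold and 47 of 50 lowered 4-fold. Most simulated TUs lay at the median mRNA, whereas most TUs in the data were called, so these rates may not hold for the data.

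Where a gene had 2 counted transcripts, that with the longer exons was used. Fingers were counted as matches to the C2H2 spacing pattern in the translated canonical coding sequence. Repeats were exonic windows of 75 bases found more than once on the assembled chromosomes of GRCh37. Named genes were the 10 lowest and 10 highest members called on the same side in replicates 1 and in replicates 2, the 5 highest in each assay, the list of RNA, ribosome, spindle and SUMO roles, and the lowest and highest of each list, chromosome, run and finger class, of which those the results turn on are described. ZNF202, ZNF322, ZNF334, ZNF397, ZNF592, ZNF687 and ZNF764 were added after their values were seen. The members, lists and tests were chosen with earlier results of these data known. Alternatives were library totals, DESeq2 1.42.0, other filters and lengths, the replicate block, a test of differences over 2-fold and the loss of each library. The limits on transcript, overlap and repeats and the summed close pairs were added after seeing the data.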

Additional observations from a re-analysis of the deposited data

Results flagged for a closer look

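Of 73 sets of 4 RNA-seq values tested for a library far from the others, 3 passed Dixon's limit, where chance alone gives about 1 in 20. ZNF106 had 33.5 TPM in RNA-seq replicate 3 against 36.2 to 36.4 in the others. ZNF282 had 45.1 TPM in replicate 4 against 43.3 to 43.4. ZNF92 had 14.5 TPM in replicate 4 against 11.8 to 12.1. Each of these genes kept its call without that library.

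Zinc finger pseudogenes outside chromosome 19, which the comparisons above leave out, held 4572 RNA-seq and 3510 PRO-seq counts. Of 39 such genes, 15 had more than 3 summed RNA-seq counts and 8 more than 3 in both assays. ZNF271P on chromosome 18 had 486, 601, 387 and 441 RNA-seq counts and 440 and 430 PRO-seq counts. ZNF731P and ZNF37BP had 1399 and 925 RNA-seq counts in all.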

How the results depend on the processing

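The test of differences over 2-fold called 95 of 165 members below and 6 above (57.6% and 3.64%, against 29.8% and 21.3% of all TUs). The limits on transcript, overlap and repeats gave 67 below and 8 above of 76 tested. Without any 1 library, 139 to 143 members were below, 14 to 17 above and 163 to 165 past the thresholds, and the median ranged from -1.40 to -1.32. DESeq2 called 143 below and 16 above. A minimum of 10 summed counts gave 142 of 224 members below and 46 above (63.4% and 20.5%, against 43.8% and 33.2% of all TUs). The median was then -0.84, with 0.5 TPM added to each level. At least 1 count in each assay gave 139 of 221 below and 37 above (62.9% and 16.7%, against 37.3% and 31.6%) and -0.81. The share below thus fell from the 86.7% at the TPM thresholds. These filters admit TUs of low transcription and moved the log2 values of mRNAs by 0.58 and 0.66 relative to the new median mRNA. Under the first, values turned positive for ZNF117 0.026, ZNF140 0.208, ZNF24 0.427, ZNF282 0.186, ZNF32 0.535, ZNF620 0.026, ZNF721 0.098, ZNF74 0.529. Under the second they did so for ZNF117 0.101, ZNF140 0.284, ZNF24 0.502, ZNF282 0.261, ZNF32 0.61, ZNF620 0.102, ZNF721 0.173, ZNF74 0.604, ZNF830 0.036. The median was -1.48 at 20 and 2 TPM, -0.94 for depth-scaled counts without length and -1.26 with 1 TPM added. The difference to chromosome 19 was -0.037 at 10 summed counts with 0.5 TPM added, -0.016 at 20 and 2 TPM and -0.23 without length. It was 0.059 with 500 bp removed in all, and 0.057 to 0.14 without any 1 library. The cause of these moves was not tested beyond the make-up of the filters.

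Replicate numbers are shared by both assays, but no label says what they mark. The differences between replicates 1 and 2 in RNA-seq and PRO-seq had a correlation of -0.0067 over TUs, so the numbers were not taken as pairs. With the replicate block, 142 members were below and 13 above. Of 72 named members, 43 kept their call in every fit that tested them. PRO-seq depth limits members such as ZNF22 and ZNF205, and RNA-seq depth those near 1 TPM, such as ZNF596.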

Other observations

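Members that share a number and differ in their letter form 8 families of 22 genes, and in 3 of them at least 2 genes passed the thresholds. ZNF280A and ZNF280B, neighbours on chromosome 22, were both called below the median mRNA and differed in size. ZNF280A had 64.4, 61.03, 62.9 and 67.5 TPM in RNA-seq and 136 and 151 TPM in PRO-seq, a log2 relative half-life of -0.53 ± 0.12. ZNF280B had 23.6, 22.4, 24.8 and 23.9 TPM in RNA-seq and 234 and 243 TPM in PRO-seq and -2.70 ± 0.07. ZNF33A and ZNF33B, KRAB genes on either side of the centromere of chromosome 10, had -0.38 ± 0.29 and -1.60 ± 0.13, with PRO-seq levels of 30.2 and 51.3 TPM. ZNF518A and ZNF518B, on chromosomes 10 and 4, had -1.89 ± 0.16 and -1.68 ± 0.054 while their RNA-seq levels were 6.32 and 50.05 TPM. In the ZNF385 family only ZNF385A passed the thresholds. ZNF385B, ZNF385C and ZNF385D had low PRO-seq levels of 0.924, 2.48 and 0.727 TPM, from 202, 93 and 355 counts. Their RNA-seq levels were 0.0217, 0.0762 and 0.910 TPM, from 1, 3 and 13 counts. The counts of both assays are not alike in length, since the ZNF385D transcript spans 935620 bp and has 1050 exonic bases. The differences within families were not tested, and these families were chosen after the values were seen.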
